A study of Homo sapiens with 6 samples.

Results

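PTPN14, YAP and TEAD pathway genes were followed in RT-112, an established human bladder cancer cell line, after silencing of PPP2R2A, which encodes a regulatory B subunit of protein phosphatase 2A. The members are 10 genes chosen by symbol: the phosphatase gene PTPN14, the coactivator genes YAP1 and WWTR1 (TAZ), the transcription factor gene TEAD1, the kinase genes LATS1 and LATS2, the angiomotin family gene AMOTL2, and the target genes CCN1, CCN2 and ANKRD1. Every probe set carrying 1 of these symbols and no other was taken, which gave 26 of the 41091 probe sets with a single symbol and 10 of 19775 genes. Of these, 19 probe sets and 9 genes passed the filter on low signals, and CCN2 did not. RNA was measured on 6 oligonucleotide arrays, 2 (A and B) in each of 3 groups. The control group received a scramble siRNA, and the other groups received siRNA 1 or siRNA 2 against PPP2R2A. All cells were plated at 50% confluence, were transfected with 50 nM siRNA by a lipid reagent and again 24 h later, and gave RNA 24 h after that. All groups are thus doubly transfected cells of 1 line, and the knockdown was transient. The series calls the arrays technical duplicates, so the p-values measure only the spread between these arrays, and their number limits the precision.

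YAP and TAZ are transcriptional coactivators that bind DNA through TEAD factors. In the Hippo pathway, MST kinases activate LATS1 and LATS2, which phosphorylate YAP and TAZ and so keep them in the cytoplasm or mark them for degradation. PTPN14 is a FERM domain tyrosine phosphatase that binds YAP and holds it outside the nucleus, and angiomotins such as AMOTL2 bind YAP at junctions. CCN1, CCN2 and ANKRD1 are textbook readouts of YAP and TAZ, and AMOTL2, LATS2 and PTPN14 are themselves among the targets, which makes them feedback genes. Arrays measure transcripts and do not show where YAP lies in the cell or whether it is phosphorylated.

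PPP2R2A itself read 1381 and 1589 (scramble), 336 and 397 (siRNA 1) and 510 and 533 (siRNA 2) on its brightest probe set, so all 4 knockdown arrays lay below both scramble arrays (log2 changes -2.02 and -1.51, limma adjusted p = 0.0403 and 0.0461). Of 11 urothelial and epithelial markers, 10 had a probe set, and these 10, among them GATA3, KRT7 and EPCAM, were above the array median on all 6 arrays. Their summed signal was 134454 to 139167 on scramble, 135305 to 140159.6 on siRNA 1 and 114828 to 122791 on siRNA 2 arrays, so both siRNA 2 arrays lay below all others. Of 12 markers of other cell types, 10 had a probe set and 5, PTPRC, COL3A1, PDGFRB, GFAP and ALB, were above the array median on 0 arrays. CD3E was above it on 2. The remaining 4, COL1A1, PECAM1, CDH5 and DES, were above it on all 6, and the list's summed signal was 1652 to 1695 on scramble, 1536 to 1610 on siRNA 1 and 1607 to 1633 on siRNA 2 arrays. Over the genes tested, duplicates had correlations of 0.979 to 0.980 and pairs from unlike groups 0.970 to 0.978. The ACTB control's 3′ probe set over its 5′ one, which grows as RNA is degraded or copied short, gave 5.43 and 5.94 (scramble), 6.52 and 7.82 (siRNA 1) and 7.47 and 12.4 (siRNA 2). The same ratio of GAPDH was between 0.943 and 1.02 on all arrays. The part of the ACTB ratio and of the marker sums in the results below was not tested.

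The DNA side of the pathway is shown for 3 members because YAP and TAZ bind DNA through TEAD factors. Only bases just before the start were searched, and TEAD motifs farther away were not examined. The sequences are the 250 bases before the RefSeq start site (GRCh38.p14), 5′ to 3′ on the gene's strand, and capitals mark each match to the TEAD core motif GGAATG or its reverse complement CATTCC. PTPN14 is shown as the member that was called, and CCN2 and ANKRD1 as classical targets with several matches.

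PTPN14 (chr1:214551603-214551852, minus strand): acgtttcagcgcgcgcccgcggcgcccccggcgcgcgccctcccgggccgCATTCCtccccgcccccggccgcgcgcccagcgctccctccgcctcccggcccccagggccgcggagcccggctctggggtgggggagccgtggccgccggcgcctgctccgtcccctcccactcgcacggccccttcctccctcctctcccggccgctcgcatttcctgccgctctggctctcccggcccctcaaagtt
CCN2 (chr6:131951373-131951622, minus strand): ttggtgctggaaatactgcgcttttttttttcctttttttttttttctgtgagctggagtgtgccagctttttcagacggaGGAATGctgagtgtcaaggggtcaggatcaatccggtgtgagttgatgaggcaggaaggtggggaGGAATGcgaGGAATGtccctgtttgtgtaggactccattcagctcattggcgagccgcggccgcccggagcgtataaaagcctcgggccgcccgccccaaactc
ANKRD1 (chr10:90921088-90921337, minus strand): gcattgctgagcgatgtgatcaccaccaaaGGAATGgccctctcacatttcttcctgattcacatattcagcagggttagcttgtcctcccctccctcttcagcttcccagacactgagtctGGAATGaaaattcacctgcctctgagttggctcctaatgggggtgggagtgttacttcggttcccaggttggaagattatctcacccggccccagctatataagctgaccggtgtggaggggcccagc

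The PTPN14 window holds 1 match, which begins 200 bases before the start. The CCN2 window holds 3, at 169, 104 and 95 bases before the start, and the ANKRD1 window 2, at 220 and 128 bases. RefSeq windows were found for 8 of the 10 members, 11 windows in all, and those of 5 members hold the motif on either strand. The further 2 are YAP1, with 1 match at 162 bases, and AMOTL2, with 1 match at 69 bases in 1 of its 2 windows. Of 35116 windows of this length in the table, 11.9% hold at least 1 match, 0.940% hold 2 or more and 0.0826% hold 3 or more. A match describes these letters and is not a measured binding site. CCN1 and TEAD1 were named only.

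The comparisons of each siRNA with scramble ask which members change when PPP2R2A is silenced. They share the scramble arrays, so they are given side by side. A gene was called at a limma adjusted p under 0.05 over 12735 genes with a change of at least 1.5-fold, each gene being read on its brightest probe set. With siRNA 1, 1 of the 9 members tested was called, against 0.393% of all genes tested. With siRNA 2, 1 of 9 was called, against 0.597% of all genes. Both calls were PTPN14, whose rise was known when the members were listed. In the direct contrast of the siRNAs 0 of 9 were called by limma, against 0.212% of all genes. There 4 had an unadjusted p under 0.05, against 18.7% of all genes at that threshold. Against scramble, 3 members were higher and 1 lower at that threshold with siRNA 1, beside 16.2% of all genes. With siRNA 2, 2 were higher and 3 lower, beside 20.8%. Over the 9 members the median log2 change was -0.037 with siRNA 1 and 0.025 with siRNA 2, beside 0.011 and 0.016 over all genes tested.

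PTPN14 rose with both siRNAs. Its signals on probe set 226282_at were 695 and 694 (scramble), 1555 and 1636 (siRNA 1) and 1402 and 1300.1 (siRNA 2). All 4 knockdown arrays lay above both scramble arrays, and both siRNA 1 arrays lay above both siRNA 2 arrays. The signal reached 230% of scramble with siRNA 1 (log2 change 1.20, SE 0.084, adjusted p = 0.0430) and 194% with siRNA 2 (log2 change 0.96, SE 0.084, adjusted p = 0.0461). As RNA was taken from whole cultures, more RNA per cell and more cells that express the gene cannot be told apart. The difference between the siRNAs was 0.24 (95% confidence interval 0.020 to 0.46) and was not called (adjusted p = 0.243).

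The other probe sets of PTPN14 gave smaller or less precise values. Probe set 244533_at read 290 and 329 (scramble), 557 and 460 (siRNA 1) and 498 and 449 (siRNA 2), again with no overlap between knockdown and scramble arrays (log2 changes 0.71 and 0.61). Probe set 242321_at read 207 and 150 (scramble), 190 and 277 (siRNA 1) and 351.4 and 311 (siRNA 2), so siRNA 1 overlapped scramble there and siRNA 2 did not (log2 changes 0.38 and 0.91). Probe set 205503_at lay around the array medians of 69.3 to 76.2 on all arrays, from 51.8 to 91.5, and its groups overlapped. When each of 23969 probe sets above the filter was tested on its own, limma called 0 of the 19 member probe sets in each comparison, against 0% of all probe sets with siRNA 1, 0.00417% with siRNA 2 and 0% between the siRNAs. Without adjustment, 7, 11 and 6 of the 19 had p under 0.05, beside 13.7%, 18% and 16.2% of all probe sets tested. In that fit PTPN14 on 226282_at had an adjusted p = 0.0834 with siRNA 1 and 0.0814 with siRNA 2. Its call under this variance setting thus depends on testing 1 probe set a gene. With the intensity trend described below, limma called it in the probe set fit too (adjusted p = 0.000253 and 0.000702).

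**Figure D1:**
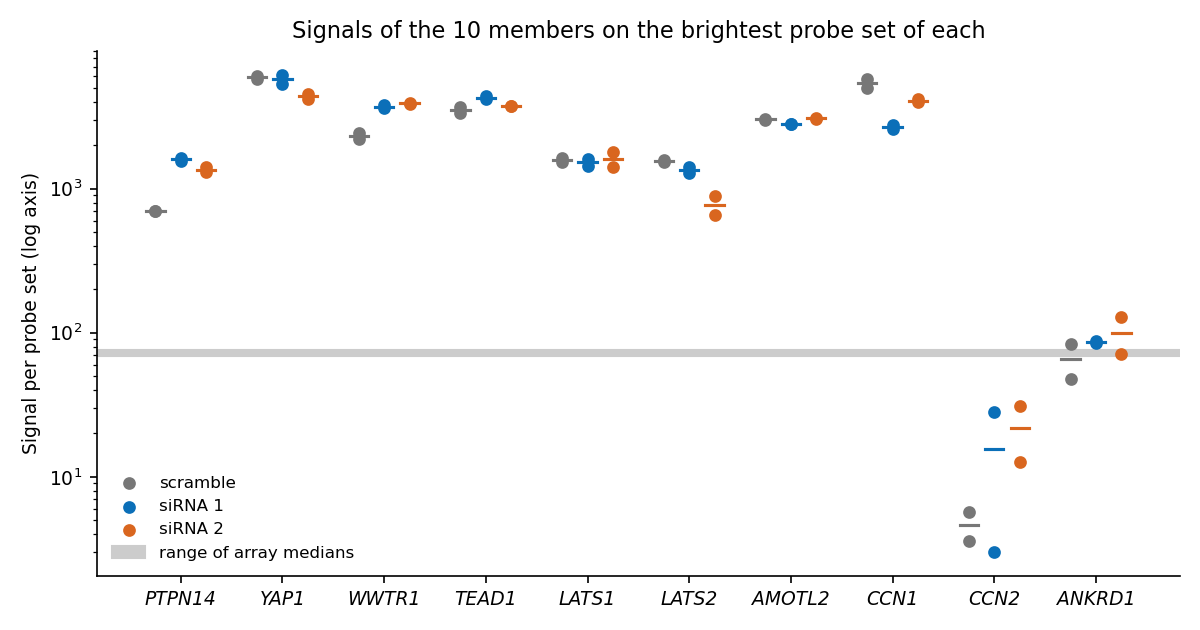
Signal of each member on its brightest probe set (log axis) on the 2 arrays of each group, with the group mean as a bar and the range of the 6 array medians in grey. PTPN14, WWTR1 and TEAD1 are higher, and CCN1 and LATS2 lower, on all 4 knockdown arrays than on both scramble arrays. YAP1 is lower with siRNA 2 only, CCN2 lies below the medians and ANKRD1 near them.

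Neither coactivator gene was called. WWTR1, which encodes TAZ, read 2445 and 2206 (scramble), 3599 and 3793 (siRNA 1) and 3913 and 3882 (siRNA 2) on its brightest probe set, 202133_at. All knockdown arrays lay above both scramble arrays, with means of 159% and 168% of scramble. The log2 changes were 0.67 (SE 0.091, adjusted p = 0.0807) and 0.75 (SE 0.091, adjusted p = 0.0556). The siRNAs differed by -0.077 (95% confidence interval -0.31 to 0.16). Its dimmer probe set 202132_at stood at log2 changes of 0.56 and 0.25, and 202134_s_at at 0.14 and -0.14, with siRNA 2 arrays of 366 and 327 against scramble arrays of 366 and 398. Averaged over its 3 probe sets, WWTR1 stood at 0.46 and 0.28, neither called (adjusted p = 0.311 and 0.352).

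YAP1, the other coactivator gene, read 5772 and 6019 (scramble), 6168 and 5350.1 (siRNA 1) and 4551 and 4188 (siRNA 2) on 224894_at. The siRNA 1 arrays spanned the scramble arrays and both siRNA 2 arrays lay below them. Its log2 change was -0.037 with siRNA 1 (adjusted p = 0.898) and -0.43 with siRNA 2 (SE 0.11, adjusted p = 0.129), where the signal was 74.1% of scramble. The second probe set, 224895_at, gave 0.013 and -0.51, with siRNA 2 arrays of 2130 and 1980.3 below scramble arrays of 2728 and 3140. The third, 213342_at, gave 0.14 and -0.022. On 224894_at the siRNAs differed by 0.40 (95% confidence interval 0.11 to 0.68, adjusted p = 0.174).

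TEAD1, the DNA-binding partner, read 3685 and 3330 (scramble), 4371 and 4164 (siRNA 1) and 3755 and 3719 (siRNA 2) on 224955_at. Knockdown arrays were above scramble arrays, by log2 changes of 0.28 (SE 0.090, adjusted p = 0.246) and 0.093 (adjusted p = 0.614), neither called. Its probe set 214600_at lay the other way, with scramble arrays of 249 and 246, siRNA 1 arrays of 220 and 233, and siRNA 2 arrays of 210 and 187 (log2 changes -0.13 and -0.32). The third, 1553322_s_at, was below the filter, with signals from 28.5 to 66.7. The TEAD1 probe sets thus disagree in direction, and no change of the gene was shown.

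Of the LATS kinase genes, LATS2 was lower with siRNA 2 on both probe sets above the filter, although the test did not call it. On 227013_at it read 1524 and 1576 (scramble), 1415 and 1272 (siRNA 1) and 655 and 893 (siRNA 2). The siRNA 2 mean was 49.9% of scramble (log2 change -1.02, SE 0.17, adjusted p = 0.0776) and the siRNA 1 mean was 86.7% (log2 change -0.21, adjusted p = 0.609). On 223380_s_at it read 932 and 802 (scramble), 675 and 892 (siRNA 1) and 483 and 481 (siRNA 2) (log2 changes -0.16 and -0.84). The siRNA 1 level was above that of siRNA 2 by 0.81 on 227013_at (95% confidence interval 0.36 to 1.26, adjusted p = 0.122). Without siRNA 2 array B, the array with the highest ACTB ratio, the change with siRNA 2 on 227013_at was -1.24, and without array A it was -0.79. Probe sets 230348_at and 223379_s_at were below the filter, with signals from 8.07 to 69.7.

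LATS1 read 1618 and 1519 (scramble), 1594 and 1442 (siRNA 1) and 1785 and 1421 (siRNA 2) on 227772_at. All groups overlapped, with log2 changes of -0.048 and 0.023 (95% confidence intervals -0.42 to 0.32 and -0.35 to 0.39). Its other 3 probe sets were below the filter, with signals from 1.49 to 49.3.

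Of the classical readouts CCN1, CCN2 and ANKRD1, CCN2 was not tested and the others were not called. CCN1, a secreted matrix protein gene and an early target of YAP and TAZ, read 5761 and 5009 (scramble), 2571 and 2738 (siRNA 1) and 3954 and 4196 (siRNA 2) on 201289_at. The 3 groups did not overlap, with siRNA 1 lowest. Its level was 49.3% of scramble with siRNA 1 (log2 change -1.02, SE 0.11, adjusted p = 0.0561) and 75.7% with siRNA 2 (log2 change -0.40, SE 0.11, adjusted p = 0.143), neither called. The second probe set, 210764_s_at, read 1748 and 1544 (scramble), 807 and 914 (siRNA 1) and 1212 and 1256 (siRNA 2), the same order of groups (log2 changes -0.93 and -0.41). CCN1 was lower with siRNA 1 than with siRNA 2 by a log2 difference of -0.62 on 201289_at (95% confidence interval -0.90 to -0.34, adjusted p = 0.0934).

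AMOTL2, both a regulator and a target, was not called. It read 3002 and 3039 (scramble), 2824 and 2807 (siRNA 1) and 3055 and 3090.0 (siRNA 2). The log2 changes were -0.10 (95% confidence interval -0.29 to 0.089) and 0.025 (-0.17 to 0.22). ANKRD1, a muscle ankyrin repeat protein gene, lay near the array medians, with 84.1 and 47.9 for scramble, 87.3 and 85.5 for siRNA 1, and 70.9 and 129 for siRNA 2. Its log2 changes of 0.44 and 0.58 (SE 0.39 for each, adjusted p = 0.639 and 0.465) span 0 in their intervals. Without scramble array A they were 0.84 and 0.98, without scramble array B 0.038 and 0.18, and the siRNA 2 value was 1.01 without its array A and 0.16 without its array B. CCN2, the connective tissue growth factor gene, read 3.57 and 5.72 (scramble), 28.2 and 3.02 (siRNA 1) and 12.6 and 31.1 (siRNA 2). All 6 values lay below the array medians on the only CCN2 probe set, so it was not tested and no fold is given. The window with 3 motif matches printed above thus belongs to a gene whose probe set was below the median on every array.

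**Figure D2:**
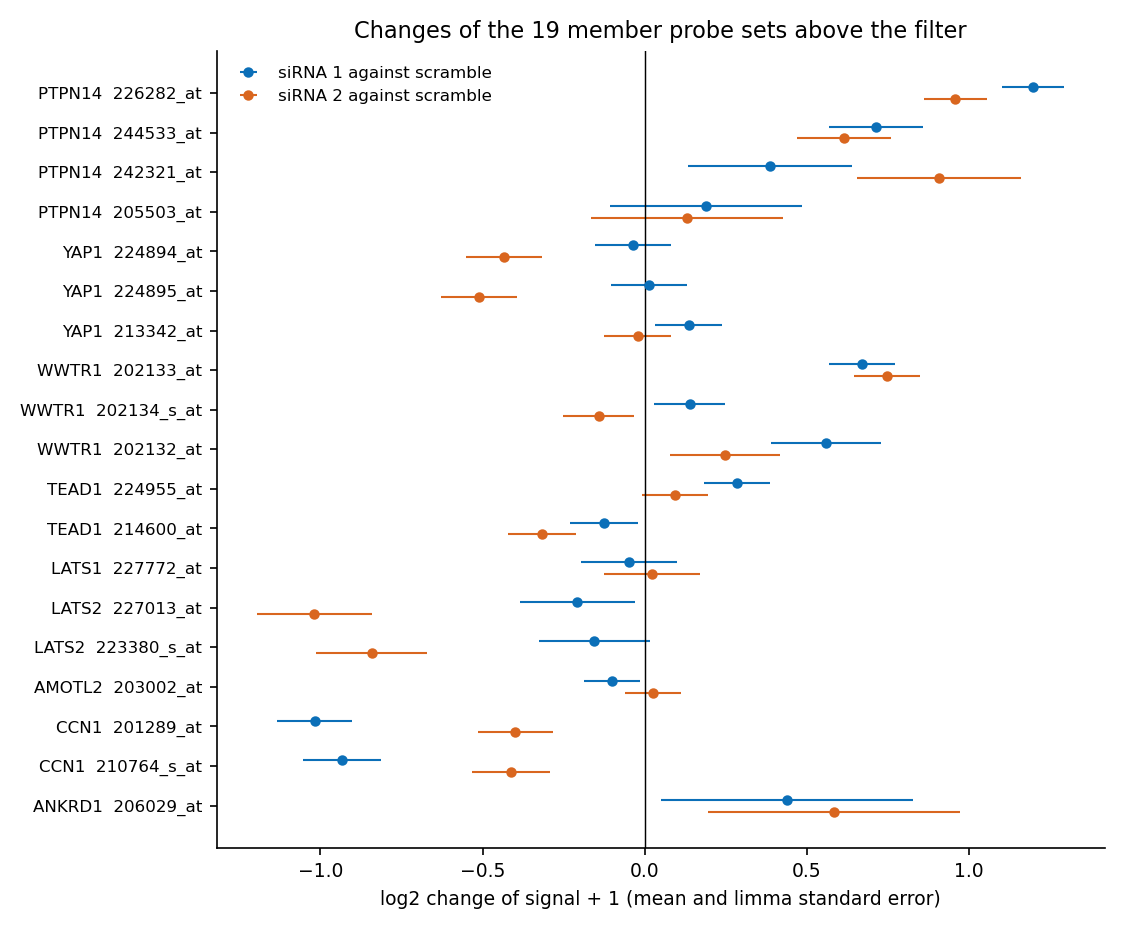
Log2 change with limma's standard error for each of the 19 member probe sets above the filter, siRNA 1 (blue) and siRNA 2 (orange) against scramble. All 4 PTPN14 probe sets lie to the right of 0, both CCN1 probe sets to the left, both LATS2 probe sets at -0.84 and -1.02 with siRNA 2, and the TEAD1 probe sets on opposite sides.

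With so few arrays the calls turn on how each gene's variance is estimated. When limma's prior variance was allowed to depend on signal intensity, 3 of 9 members were called with siRNA 1 (PTPN14, WWTR1 and CCN1), against 2.35% of all genes. With siRNA 2, 3 of 9 were called (PTPN14, WWTR1 and LATS2), against 3.71% of all genes. Between the siRNAs 2 of 9 were called (CCN1 and LATS2), against 2.84%. Under this setting the adjusted p of WWTR1 was 0.00105 and 0.000531, that of CCN1 with siRNA 1 was 0.000146, and that of LATS2 with siRNA 2 was 0.00187. With siRNA 2, YAP1 had an adjusted p = 0.0119 and CCN1 an adjusted p = 0.0186, and both stayed under 1.5-fold. By probe set this setting called 5 of 19 with siRNA 1 (2 of CCN1, 2 of PTPN14, 1 of WWTR1), against 1.84% of all probe sets. It called 5 with siRNA 2 (2 of LATS2, 2 of PTPN14, 1 of WWTR1), against 3.34%, and 3 between the siRNAs (1 of CCN1, 2 of LATS2), against 2.55%. In the other direction, leaving out any 1 of the 6 arrays ended the PTPN14 calls, as it did every call among all genes, with adjusted p from 0.139 to 0.224 for siRNA 1 and 0.124 to 0.196 for siRNA 2.

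**Figure D3:**
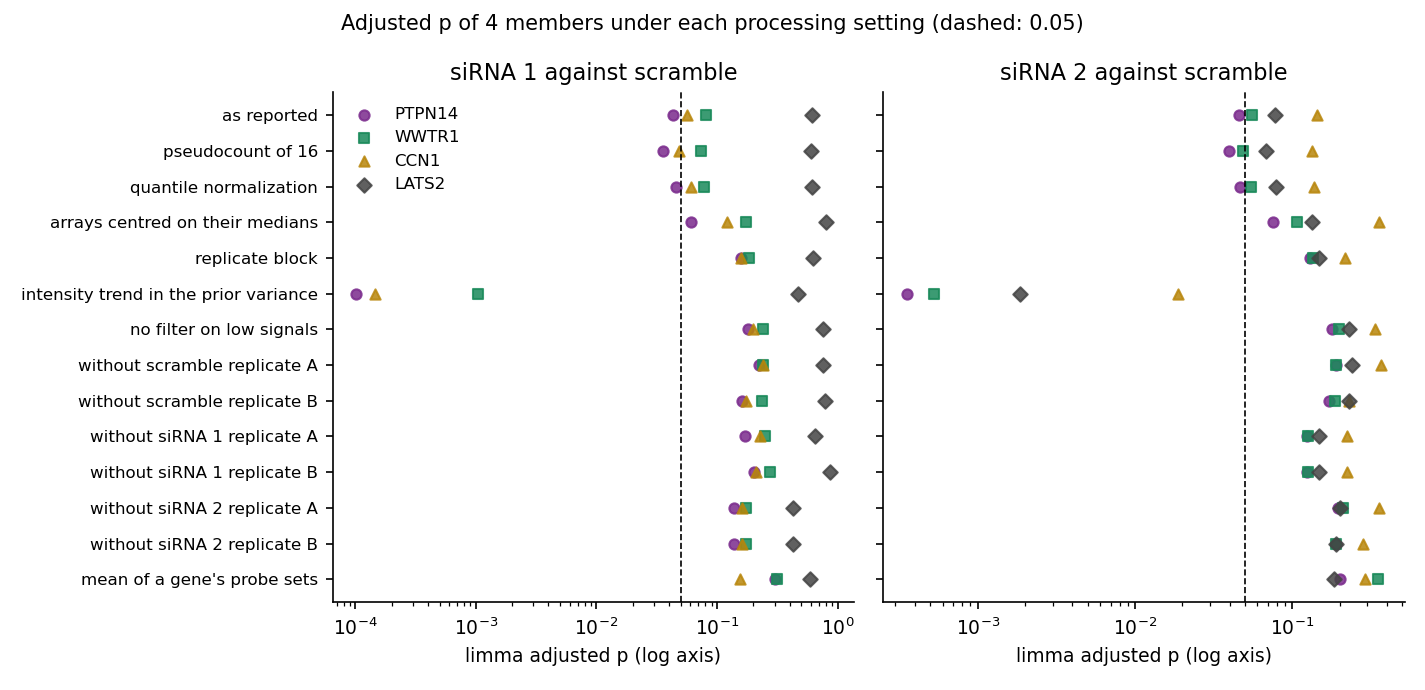
Limma adjusted p (log axis) of PTPN14, WWTR1, CCN1 and LATS2 under the reported setting and the 13 others, for each siRNA against scramble, with the threshold of 0.05 dashed. The intensity trend gives the lowest p of PTPN14 and WWTR1 with both siRNAs, of CCN1 with siRNA 1 and of LATS2 with siRNA 2, and leaving out an array leaves all 4 genes above the threshold.

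The rest of the pathway was read from 7 lists holding 91 genes, of which 84 had a probe set of their own and 71 were tested. Limma called 0 of 71 in each comparison, against the shares of all genes given above. At an unadjusted p under 0.05 there were 9 higher and 9 lower with siRNA 1, and 7 higher and 7 lower with siRNA 2 and likewise between the siRNAs. Of all genes, 16.2% with siRNA 1, 20.8% with siRNA 2 and 18.7% between the siRNAs were under that p. With an intensity trend 2 of 71 were called with siRNA 1, 3 of 71 with siRNA 2 and 0 of 71 between the siRNAs, which is near or below the share of all genes. The median log2 change of the 71 was -0.048 with siRNA 1 and 0.0049 with siRNA 2.

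Among 17 core kinases and adaptors tested the medians were -0.022 and -0.0041. WWC3, a scaffold of the KIBRA family that promotes LATS activity, read 998 and 1047 (scramble), 1604 and 1558 (siRNA 1) and 1486 and 1353 (siRNA 2) (log2 changes 0.63 and 0.47, adjusted p = 0.0807 and 0.0872). All knockdown arrays lay above scramble, and it was called higher with siRNA 1 alone under the intensity trend (adjusted p = 0.00379 and, under 1.5-fold, 0.0121). MOB1B, a coactivator of LATS, had the lowest mean change (-0.48 and -0.27, neither called). Among 13 junction and polarity genes the highest was PATJ, a Crumbs complex scaffold (0.37 and 0.73, adjusted p = 0.318 and 0.0934), it was called higher with siRNA 2 under the intensity trend (adjusted p = 0.00348), and averaging its probe sets turned that value to -0.081. The lowest was ARHGAP29, which read 6679 and 6324 (scramble), 5592 and 5454 (siRNA 1) and 4129 and 4560 (siRNA 2) (-0.24 and -0.58, adjusted p = 0.311 and 0.0700).

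The other FERM domain tyrosine phosphatase genes were tested as 4 genes with median log2 changes of 0.42 and 0.28. PTPN13 read 371 and 422 (scramble), 558 and 514 (siRNA 1) and 725 and 668 (siRNA 2) (log2 changes 0.44 and 0.81, adjusted p = 0.189 and 0.0577). PTPN3, named after its values were seen, read 821 and 875 (scramble), 1116 and 1146 (siRNA 1) and 1311 and 1235 (siRNA 2) (0.42 and 0.59, adjusted p = 0.141 and 0.0637). Both genes were higher on all 4 knockdown arrays, and both were called with siRNA 2 under the intensity trend and in no comparison without it. The mean of the PTPN13 probe sets gave -0.13 with siRNA 1. PTPN21, named to complete the list, stood at 0.42 and -0.021 (adjusted p = 0.420 and 0.969). Its siRNA 1 arrays lay above both scramble arrays, and its siRNA 2 arrays overlapped them. PTPN4 was the lowest of the list (-0.32 and -0.26), and averaging its probe sets gave 0.16 and 0.46.

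Among 6 TEAD factors and cofactors tested the medians were 0.12 and 0.10. VGLL4, which competes with YAP for TEAD, had the highest mean change (0.20 and 0.21), which was 0.37 and 0.38 without scramble array A and 0.028 and 0.036 without scramble array B. Without siRNA 1 array A the siRNA 1 value was 0.11. TEAD2 had the lowest, with a siRNA 1 array at 11.7 beside scramble arrays of 88.0 and 72.8 (log2 changes -1.57 and 0.11, SE 0.74). TEAD2 lay near the array medians, so the size of that value rests on the background level. Among 13 striatin complex genes, which encode partners of another form of protein phosphatase 2A that acts on MST kinases, the medians were -0.062 and -0.0074. STRN3, a striatin, had the highest mean change (0.15 and 0.25), and STK26, a kinase of the complex, the lowest (-0.47 and -0.16).

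In the YAP and TAZ target signature, without the members, 13 genes were tested and 0 were called by limma with or without the intensity trend, against 2.35% and 3.71% of all genes with it. At an unadjusted p under 0.05 there was 1 higher with siRNA 1 and 1 lower with siRNA 2, where 16.2% and 20.8% of all genes had such a p, and the medians were -0.061 and -0.11. NT5E, the ecto-nucleotidase gene, had the highest mean change (0.39 and 0.12) and AXL, a receptor tyrosine kinase gene, the lowest (-0.29 and -0.34). Among 5 other reported targets the medians were -0.20 and 0.088. DLC1 had the highest mean change (0.021 and 0.40). EDN1, which encodes endothelin-1, read 643 and 622 (scramble), 200.3 and 336 (siRNA 1) and 399 and 403 (siRNA 2). All 4 knockdown arrays lay below scramble (log2 changes -1.28 and -0.66, adjusted p = 0.135 and 0.245), and the intensity trend called it lower with siRNA 1 (adjusted p = 0.00723). THBS1, the thrombospondin gene, named after its values were seen, read 9354 and 8968 (scramble), 6371 and 5886 (siRNA 1) and 6882 and 6093 (siRNA 2) (-0.58 and -0.50, adjusted p = 0.111 and 0.0968). The genes of the signature spanned -0.29 to 0.39 with siRNA 1 and -0.53 to 0.32 with siRNA 2.

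**Figure D4:**
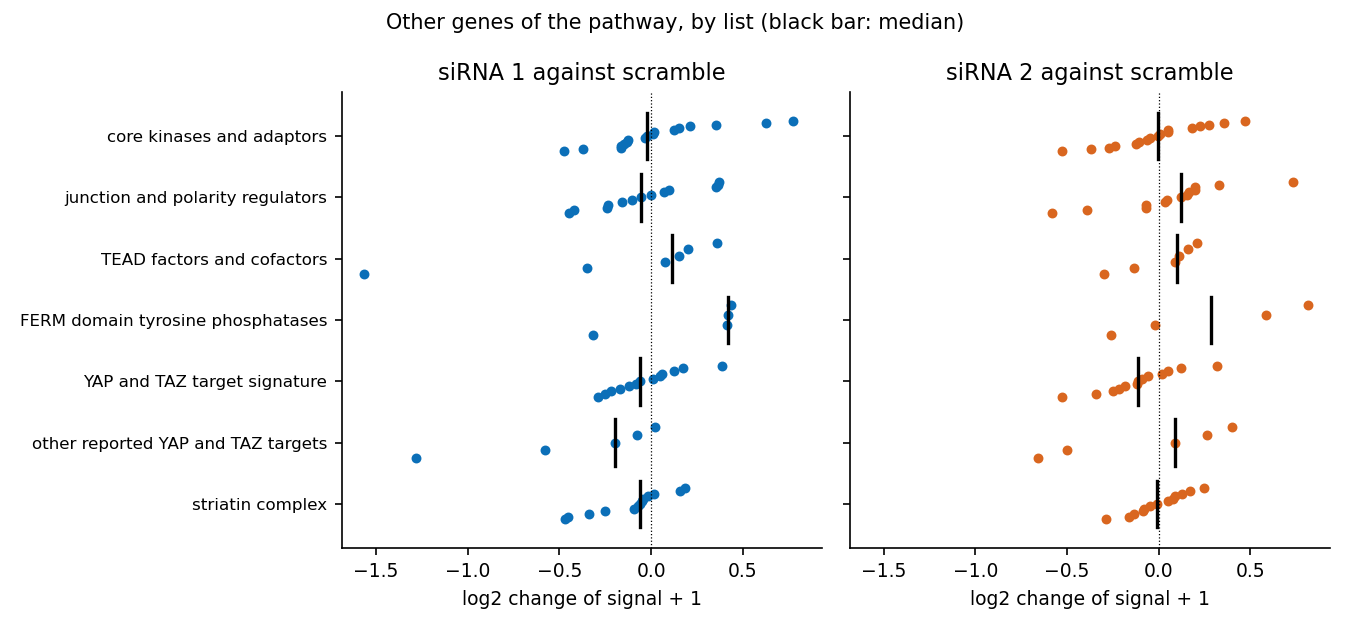
Log2 change of each tested gene of the 7 pathway lists (points) with the list's median (black bar), siRNA 1 on the left and siRNA 2 on the right. The medians run from -0.20 to 0.42. Single genes such as TEAD2 (-1.57 with siRNA 1), EDN1 (-1.28 with siRNA 1) and PTPN13 (0.81 with siRNA 2) lie at the edges.

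The genes most like PTPN14 were those with the highest Pearson r of log2 signals over the 6 arrays, given as a description because 6 arrays of 3 groups leave few independent points. They were the Golgi glycosyltransferase gene MGAT4A (r = 0.998), the phospholipid synthesis gene CDS1 (0.998) and SUSD1 (0.994). TRIM14 (0.994) and the desmosomal plakin gene PPL, periplakin (0.993), followed. MGAT4A read 406 and 417 (scramble), 1092 and 1200.4 (siRNA 1) and 926 and 911 (siRNA 2). PPL read 2046 and 2091 (scramble), 3669 and 3872 (siRNA 1) and 3307 and 3460 (siRNA 2). Its order of groups is that of PTPN14, which the choice by r favours. Of the other members, WWTR1 came closest to PTPN14 (r = 0.951), and CCN1 was the most opposed (r = -0.884).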

How the data were processed

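RT-112 RNA was measured on 6 oligonucleotide arrays. The authors deposited 1 linear intensity for each probe set, computed with Affymetrix Expression Console, per the submitters' processing notes. Its algorithm is not given in the sources used here, and the depth of an array is only its signal. The 2% trimmed mean was 500.07 on every array and medians were 69.3 to 76.2.

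Probe sets were named by the platform table (annotation of 41091 probe sets with 1 symbol, 41037 matched to RefSeq by Entrez identifier). The brightest probe set by mean log2(signal + 1) stood for a gene, and was tested if above the array median on at least 2 arrays, leaving 12735 genes. Groups came from the titles. Limma 3.58.1 in R 4.3.3 fitted 1 coefficient a group over all genes (3 residual and 1.72 prior degrees of freedom), with Benjamini-Hochberg adjustment, and was tested on simulated data. Alternatives were a pseudocount of 16, quantile normalization, an intensity trend, median centring, blocking on the replicate letter, no filter, mean of probe sets, and leaving out each array. The mean took in probe sets below the filter.

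The members and lists were chosen with earlier results of these data known. Besides members, the genes named are PPP2R2A, the highest and lowest of each list by mean change, and the 5 most like PTPN14, unless stated. Control probe sets and those with several symbols (1801) or none (11721) were left out. Probe sets ending in _s_at can bind related transcripts.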

Additional observations from a re-analysis of the deposited data

Results flagged for a closer look

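For 3 genes every array of 1 siRNA lay above both scramble arrays and every array of the other lay below them. They come from the 9 members and 71 other pathway genes tested. The share of all genes with this order was not counted, so these 3 are a description and not a result about the pathway. AMOTL2 was lower with siRNA 1 and higher with siRNA 2 (log2 changes -0.10 and 0.025, a difference of -0.13, limma adjusted p = 0.429). FOXF2, a forkhead factor of the target signature, was higher with siRNA 1 and lower with siRNA 2 (0.17 and -0.12, a difference of 0.29, adjusted p = 0.217). Its signals were 1280.0 and 1361 (scramble), 1429 and 1548 (siRNA 1) and 1162 and 1268 (siRNA 2). PDCD10, of the striatin complex, was lower with siRNA 1 and higher with siRNA 2 (-0.091 and 0.13, a difference of -0.22, adjusted p = 0.244). The test of the difference called none of these 3. Groups of 2 arrays are too small to look for an outlying array.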

How the results depend on the processing

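Of 13 other settings, the PTPN14 calls held with both siRNAs under a pseudocount of 16, quantile normalization and the intensity trend. They ended with arrays centred on their medians (1.20 and 0.98, adjusted p = 0.0603 and 0.0749), with the replicate block (1.20 and 0.96, adjusted p = 0.158 and 0.129), with no filter on low signals (1.20 and 0.96, adjusted p = 0.181 and 0.179) and with probe sets of a gene averaged (0.62 and 0.65, adjusted p = 0.304 and 0.202). Under these 4, 0 members were called in any comparison, and all but the centring called 0 of all genes. Without each array in turn the change was 1.16 to 1.23 with siRNA 1 and 0.90 to 1.01 with siRNA 2, with 0 members called. A pseudocount of 16 called 2 members with each siRNA, adding CCN1 (siRNA 1, adjusted p = 0.0482) and WWTR1 (siRNA 2, adjusted p = 0.0486). Of all 12735 genes it called 65 with siRNA 1 and 162 with siRNA 2, against 50 and 76 under the reported setting. The intensity trend called 3, 3 and 2 members, 5, 5 and 3 member probe sets, and 2 and 3 other pathway genes with siRNA 1 and siRNA 2.

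The values that changed sign were not called as reported. Among them PATJ with siRNA 2 was called with the intensity trend. CDS1 with siRNA 2 stood at 0.61 as reported (limma adjusted p = 0.0556). The mean of probe sets took in those below the filter, which 1 of 4 had passed for LATS1 and 2 of 3 for TEAD1. The other LATS1 probe sets read 1.49 to 49.3, and 227772_at stood at 0.023 with siRNA 2. Taking this mean turned the difference between the siRNAs to -0.031 for PTPN14 and 0.17 for WWTR1. It turned YAP1 with siRNA 1 to 0.037, TEAD1 to -0.22 and -0.26, LATS1 with siRNA 2 to -1.05, PATJ to -0.081, VGLL4 to -0.026, TEAD2 to -0.028, NT5E to -0.16 and CDS1 to -0.14 with siRNA 2, PTPN13 with siRNA 1 to -0.13, and PTPN4 to 0.16 and 0.46. Leaving out arrays moved YAP1 with siRNA 1 from -0.14 to 0.065, LATS1 from -0.12 to 0.024 with siRNA 1 and -0.14 to 0.19 with siRNA 2, TEAD2 from -0.023 to 0.25 and NT5E from -0.0024 to 0.24 with siRNA 2, and DLC1 from -0.21 to 0.26 with siRNA 1. The causes were not tested.

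The replicate letters did not pair the arrays: deviations of like letters correlated at -0.031, 0.014 and 0.038 across groups. Signals near the array medians limit ANKRD1 and TEAD2. CCN2 lay below the medians on every array and was not tested.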
